A study of Rattus norvegicus with 6 samples.

Results

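Icam1, Vcam1 and Cd44 encode 3 adhesion molecules of the cell surface, and their transcripts were followed in rat tenocytes, the resident cells of tendon, with and without interleukin-1 beta (IL−1β), a proinflammatory cytokine. The genes were taken by their rat Ensembl identifiers, ENSRNOG00000020679 for Icam1, ENSRNOG00000014333 for Vcam1 and ENSRNOG00000006094 for Cd44, and all 3 were found among the 19133 genes of the expression table. The tenocytes came from Achilles tendons of Sprague–Dawley rats, released with collagenase and grown in medium with fetal bovine serum. The control group received complete medium only, and the IL−1β group received the cytokine at 50 ng/mL in the same medium, with 3 libraries in each group after 24 h. The age of the donor animals and their number per library are not given in the sources used here. The methods of the study describe its data in general as coming from independent experiments, whereas the labels do not say which culture or animal each library came from. The p-values measure the spread between these libraries.

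ICAM1 and VCAM1 are membrane proteins with immunoglobulin-type domains that hold leukocytes at a cell by binding integrins on the leukocyte surface. Both are best known from inflamed endothelium, where inflammatory cytokines switch them on through the transcription factor NF-κB, and fibroblast-like cells can carry them as well. CD44 is a receptor for hyaluronan, a large sugar polymer of the extracellular matrix, and is present on most connective tissue cells at rest. It links the matrix around the cell to the actin skeleton inside.

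The promoter sequences of Icam1 and Vcam1 are shown because both genes rose with IL−1β, in windows that hold matches to short NF-κB motifs. They come from the RefSeq promoter table (GRCr8 build, 250 bases before to 50 after each gene's start), in which all 3 genes were matched by symbol. The start used in the table lies inside the annotated gene for Icam1 and Cd44, whose annotation reaches further upstream, and at the edge of the gene for Vcam1, so positions below count from the start in the table. The files do not give their own build. Only bases outside the annotated gene are printed, 93 for Icam1 (chr8:27829595-27829687, plus strand) and 250 for Vcam1 (chr2:206742784-206743033, minus strand), 5′ to 3′ in the direction of the gene. The Cd44 window lies inside the annotated gene and is not printed. Capitals mark matches to GGNNNTTCC on either strand.

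Icam1: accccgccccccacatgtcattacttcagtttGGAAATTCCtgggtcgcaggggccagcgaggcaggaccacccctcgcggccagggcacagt
Vcam1: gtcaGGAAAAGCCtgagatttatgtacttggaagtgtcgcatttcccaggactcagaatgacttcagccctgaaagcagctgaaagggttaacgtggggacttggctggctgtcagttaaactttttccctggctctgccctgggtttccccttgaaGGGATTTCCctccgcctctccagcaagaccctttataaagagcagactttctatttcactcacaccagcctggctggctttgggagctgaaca

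The looser NF-κB motif, GGNNNTTCC, was found in Icam1 from −218 to −210 relative to the start, where the bases GGAAATTCC fulfil the motif on both strands, and again from −149 to −141, beyond the printed bases. In Vcam1 it was found from −246 to −238 and from −93 to −85. The Vcam1 match from −93 to −85, GGGATTTCC, also fulfils the stricter motif GGGNNTTCC, which was not found in the Icam1 window. Neither motif was found in the Cd44 window, which lies wholly inside the annotated gene and does not cover the bases upstream of it. Over the 33469 promoter windows of the table, 18.3% held the looser and 5.92% the stricter motif on either strand, and every stricter match is also a looser one.

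3 further motifs were searched on both strands. The AP-1 motif TGANTCA, present in 7.33% of all windows, was found in none of the 3 genes. The TATA motif TATAAA, present in 14.2%, was found in Icam1 from −53 to −48 and in Vcam1 from −60 to −55 and, on the opposite strand and overlapping it, from −62 to −57. It was not found in Cd44. A motif for interferon regulatory factors, made of a pair of GAAA words with 2 free bases between them, is in 3.92% of all windows, and its one match was in Vcam1 from −46 to −37. These matches describe letters in a window, and the libraries hold no measurement of binding.

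Levels are given in FPKM (fragments relative to gene length and to the mapped fragments of the library), a unit that allows levels of different genes to be compared. The table holds no read counts, but its low values step in multiples of 1 read, from which whole reads were recovered for all 19133 genes, 36506535 to 43098507 per library. The depths of both groups overlapped. On Vcam1, the implied gene length of 4007 bases puts 3 reads, taken as the floor of detection, at 0.0173 to 0.0204 FPKM.

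Icam1 was expressed by resting tenocytes and was upregulated 3.98-fold by IL−1β on the mean FPKM. In the control group the level was 26.9, 30.3 and 28.2 FPKM in libraries 1, 2 and 3. In the IL−1β group it was 114, 111 and 115 FPKM. The libraries of the IL−1β group lay close together and far above the control group, with the lowest at 3.68 times the highest control library.

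The mean of Icam1 rose from 28.4 ± 1.71 to 113.2 ± 1.81 FPKM (SD, n = 3 each), a gain of 84.8 FPKM. After scaling between libraries, the log2 fold change was 1.93 with a standard error of 0.05 and a 95% interval of 1.82 to 2.05 (limma, adjusted p = 3.6e-07). With IL−1β, Icam1 passed from a level exceeded by 2441 genes to one exceeded by 638 of the 19133. Among the 12408 genes tested, 666 (5.37%) were upregulated, which here means an adjusted p under 0.05 and a log2 fold change over 1, and 273 of these had a larger log2 fold change than Icam1. The libraries are bulk samples, so that more cells with Icam1 transcript and more transcript per cell cannot be told apart, here and for the genes below.

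**Figure D1:**
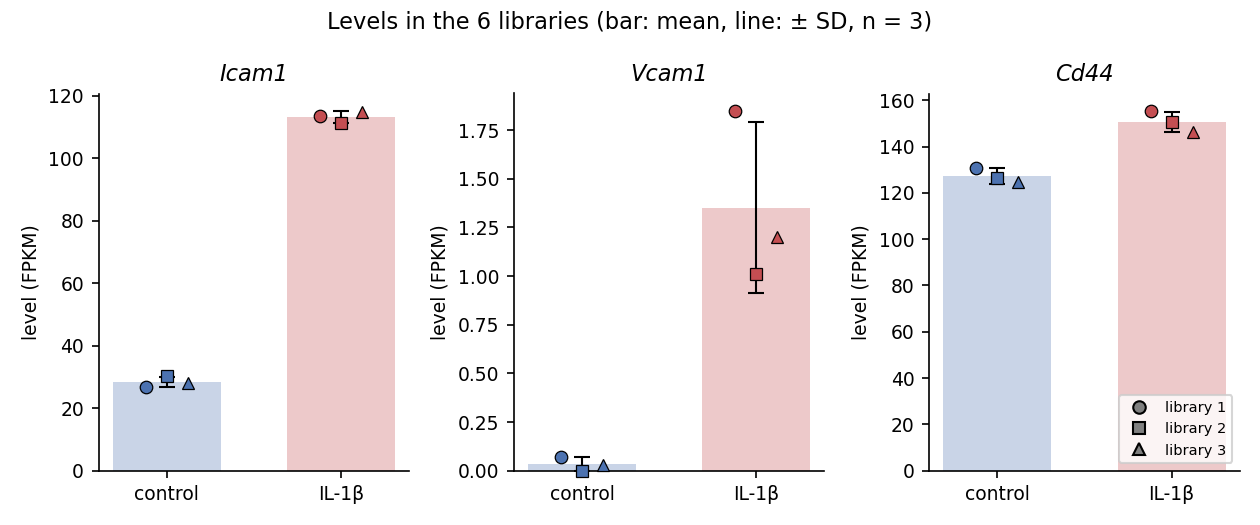
Levels of Icam1, Vcam1 and Cd44 in FPKM on linear axes from 0, with 1 point per library (circle, square and triangle for libraries 1, 2 and 3), bars for the group mean and lines for the SD (n = 3). Icam1 rises from 28.4 to 113.2 FPKM and Cd44 from 127.3 to 150.8 FPKM, while Vcam1 is near 0 in the control group and reaches 1.01 to 1.85 FPKM with IL−1β.

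Vcam1 was at the edge of detection in the control group and low in the IL−1β group. Control libraries 1, 2 and 3 held 11, 0 and 5 reads of this gene, or 0.071, 0 and 0.0298 FPKM. The IL−1β libraries held 275, 175 and 177 reads, or 1.85, 1.01 and 1.20 FPKM. The groups did not overlap, and the lowest IL−1β library was 14.2 times the highest control library. Of all genes tested, 31.2% had all 3 IL−1β libraries above all 3 control libraries in the deposited values.

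The 0 reads of control library 2 allow a level of up to 0.0204 FPKM by the floor of 3 reads, or 0.0251 FPKM by the exact 95% Poisson interval, and do not show that the transcript was absent. Within the IL−1β group, the 95% counting interval of Vcam1 (exact Poisson) was 1.63 to 2.08 FPKM in library 1, against 0.866 to 1.17 in library 2 and 1.03 to 1.39 in library 3. The interval of library 1 lay above both others, which overlapped each other. The coefficient of variation of Vcam1 in the IL−1β group was 32.4%, against 1.60% for Icam1 and 2.91% for Cd44. Such intervals cover counting error only and leave out the spread between libraries. They also take each read as independent, although duplicates from PCR were not told apart by molecular identifiers.

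The mean of Vcam1 rose from 0.0336 ± 0.0357 to 1.35 ± 0.438 FPKM (SD, n = 3 each), a gain of 1.32 FPKM. On the log2(FPKM + 0.1) scale the log2 fold change was 3.40 with a standard error of 0.36 and a 95% interval of 2.56 to 4.24 (limma, adjusted p = 0.00028). All 3 control values lay under this pseudocount. The scale understates the change of a gene with so few reads, and pseudocounts of 1 and 0.01 gave 1.15 and 5.32. Summed over libraries and divided by depth, the reads themselves gave a ratio of 39.2 (627 against 16 reads, 95% counting interval 23.9 to 68.9). This interval pools the reads and leaves out the spread between libraries. Of the 16 control reads, 11 came from control library 1. Without that library the ratio was 83.9 (5 control reads, 35.8 to 259.4), outside the interval over all libraries, and with each of the other libraries left out in turn it was 26.9 to 44.7. Vcam1 entered the test only through the IL−1β libraries, since no control library reached the filter of 0.5 FPKM. With no filter on low values, its adjusted p was 0.00042 (limma). In the IL−1β group 10914 genes still had a higher mean level than Vcam1.

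Cd44 was abundant in both groups and was 1.14-fold higher with IL−1β after scaling. In control libraries 1, 2 and 3 the level was 130.9, 126.3 and 124.7 FPKM. In the IL−1β libraries it was 155.2, 150.7 and 146.4 FPKM. The groups did not overlap, and the lowest IL−1β library lay 15.5 FPKM above the highest control library.

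The mean of Cd44 went from 127.3 ± 3.25 to 150.8 ± 4.39 FPKM (SD, 3 libraries each), a difference of 23.5 FPKM. The log2 fold change was 0.19 with a standard error of 0.05 and a 95% interval of 0.07 to 0.30, or 1.05-fold to 1.23-fold (limma, adjusted p = 0.021). Cd44 thus passed the threshold on the adjusted p and did not reach the 2-fold threshold. Of the genes tested, 19.3% were higher with IL−1β at an adjusted p under 0.05, including the 5.37% that also passed the 2-fold threshold. In the values as deposited, before scaling, 31.2% had all 3 IL−1β libraries above all 3 control libraries. Both shares count rises of any size. The adjusted p of Cd44 was 0.052 without the intensity trend in limma, 0.071 without control library 2, 0.076 without control library 3 and 0.055 without IL−1β library 2.

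For each of the 3 genes, the exact two-sided permutation test of 3 libraries against 3 gave p = 0.10, the smallest p that this design allows. The RefSeq table lists 13 transcripts of Cd44, 2 of Icam1 and 1 of Vcam1, and the deposited values are sums per gene that do not separate isoforms. In the same table none of the 3 genes overlaps another gene. Icam1 is followed by its relative Icam4, whose own values were not analysed here.

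**Figure D2:**
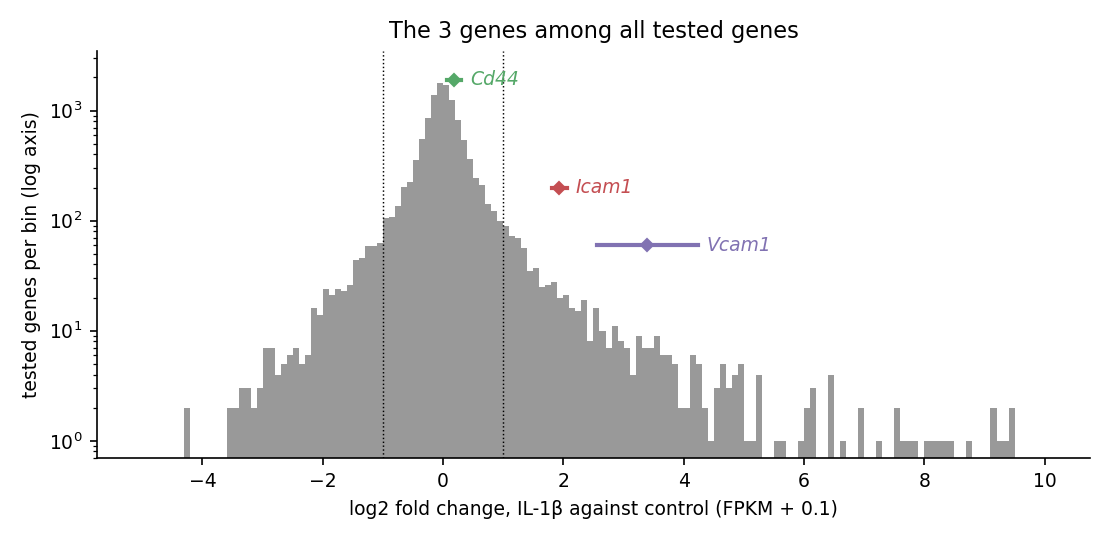
Log2 fold changes of the 12408 tested genes in bins of 0.1 (bars, log axis of counts), with Icam1, Vcam1 and Cd44 as diamonds at arbitrary heights and their 95% intervals as lines, and dotted lines at the 2-fold threshold. Cd44 at 0.19 lies within the central peak, Icam1 at 1.93 and Vcam1 at 3.40 lie beyond the threshold.

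The place of the 3 genes among all tested genes differed widely. The median over the tested genes was a log2 fold change of 0.0007, and over the upregulated genes it was 1.67. By log2 fold change at a pseudocount of 0.1, Icam1 ranked 281 and Vcam1 ranked 112. Cd44 ranked 3443, above 72.3% of the tested genes.

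The order of the levels was the same in every library, with Cd44 highest, Icam1 next and Vcam1 lowest. The distance between Cd44 and Icam1 narrowed with IL−1β. In control libraries 1, 2 and 3 the level of Cd44 was 4.88, 4.17 and 4.42 times that of Icam1. In the IL−1β libraries it was 1.37, 1.36 and 1.28 times that of Icam1, so that Cd44 remained above Icam1 by more than the spread of either.

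The log2 ratio of Cd44 to Icam1 within a library was 2.16 ± 0.11 without and 0.41 ± 0.05 with IL−1β (SD, n = 3 each). It fell by 1.75, without overlap of the groups. The log2 ratio of Cd44 to Vcam1 fell by 3.19, from 9.93 ± 0.36 to 6.74 ± 0.39, also without overlap, and pseudocounts of 1 and 0.01 gave changes of −0.93 and −5.13. In all 3 settings the ratio was lower with IL−1β. The log2 ratio of Vcam1 to Icam1 was −7.77 ± 0.47 without and −6.33 ± 0.41 with IL−1β. It rose by 1.44 at a pseudocount of 0.1, but fell by 0.79 at a pseudocount of 1. Both pseudocounts exceed every control value of Vcam1. From the reads alone, the ratio of IL−1β to control was 39.2 for Vcam1 (95% counting interval 23.9 to 68.9, and 83.9 without control library 1) and 3.98 for Icam1 (3.89 to 4.08), and for Cd44 it was 1.18 (1.17 to 1.20). These intervals pool the reads and leave out the spread between libraries. For Cd44 the limma interval, which includes that spread, was wider, at 1.05-fold to 1.23-fold. For each of the 3 ratios between genes, the exact permutation test gave p = 0.10 (0.10 also after adjustment over the 3), the smallest value possible.

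**Figure D3:**
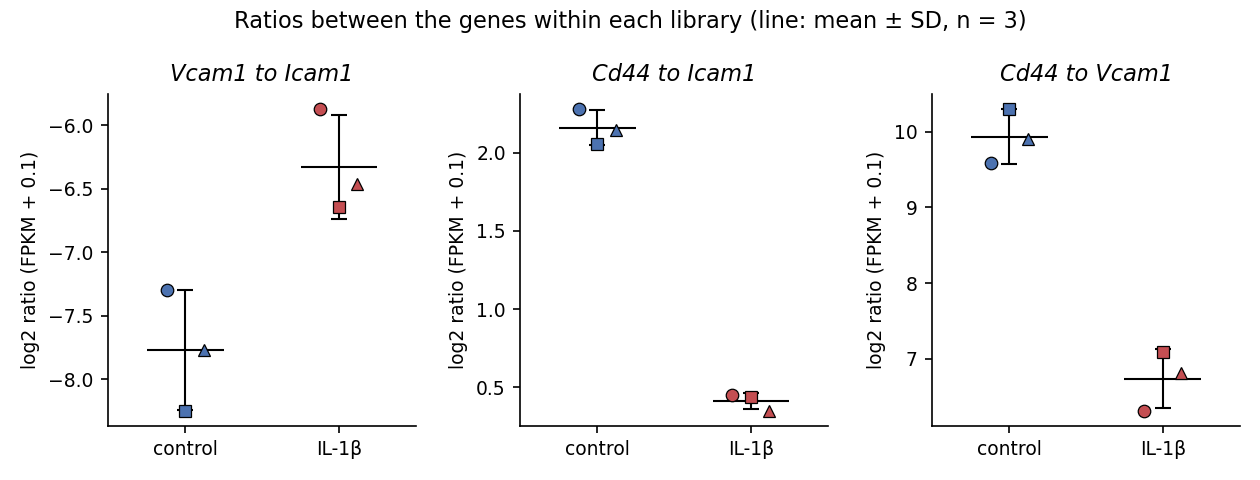
Log2 ratios between the genes within each library (FPKM + 0.1, axes not from 0), with 1 point per library (circle, square and triangle for libraries 1, 2 and 3) and the mean ± SD per group (n = 3). Cd44 to Icam1 goes from 2.16 to 0.41 and Cd44 to Vcam1 from 9.93 to 6.74, while Vcam1 to Icam1 goes from −7.77 to −6.33 at this pseudocount.

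Genes with a like pattern were sought by the root mean square difference of their log2 values, each set against its own control mean, over the 6 libraries. Nearest to Icam1 was ENSRNOG00000012074, which differed by 0.04 and rose from 24.0 ± 0.691 to 93.9 ± 2.97 FPKM (SD, n = 3 each; log2 fold change 1.91). Nearest to Vcam1 was ENSRNOG00000060237, which differed by 0.16 and rose from 0.109 ± 0.0584 to 2.19 ± 0.554 FPKM (log2 fold change 3.41). The files do not pair these identifiers with symbols. Within a difference of 0.1 lay 10 genes for Icam1, 0 for Vcam1 and 1233 for Cd44, and within 0.25 lay 98, 5 and 6461. Cd44 changed little and lies where most genes lie, whereas Vcam1 changed more and scattered between its libraries. What set these counts was not tested.

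**Figure D4:**
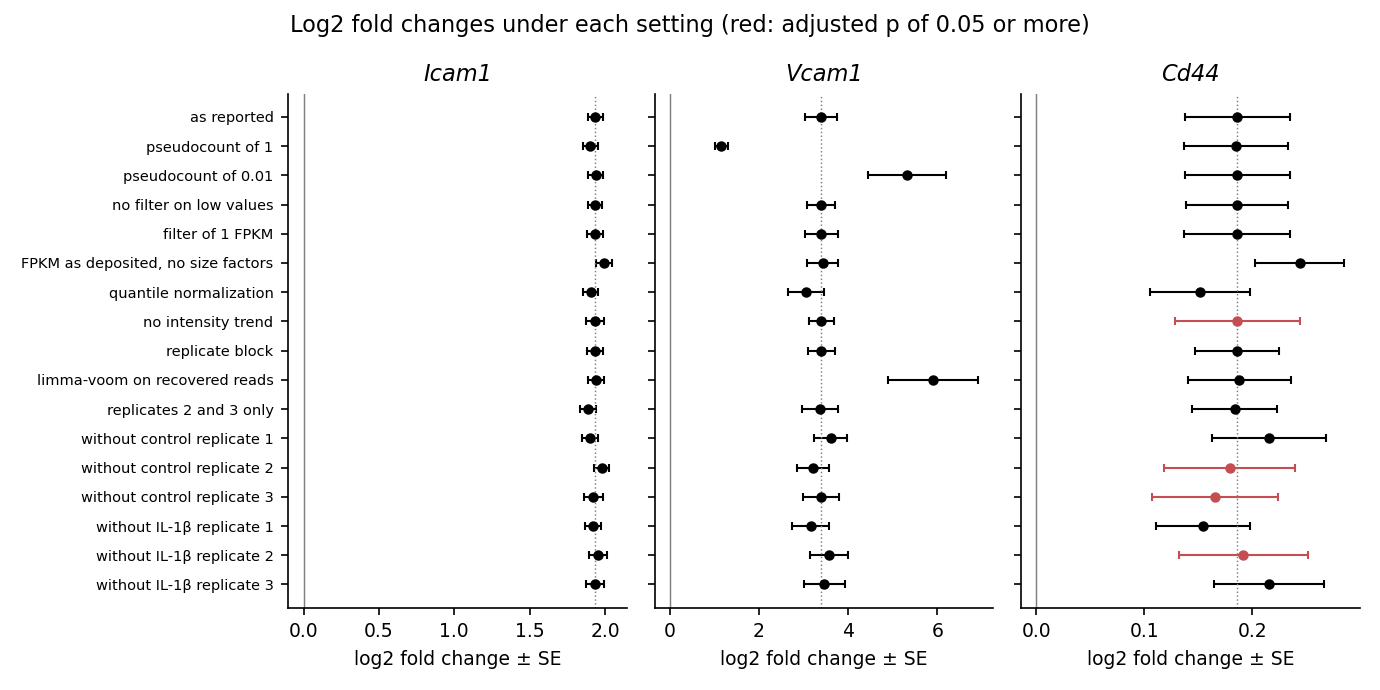
Log2 fold change and standard error of Icam1, Vcam1 and Cd44 (1 panel each, with its own scale) as reported and under each of the 16 alternative settings, in red where the adjusted p is 0.05 or more. Icam1 stays between 1.89 and 1.99 and Cd44 between 0.15 and 0.24, whereas Vcam1 ranges from 1.15 to 5.91.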

How the data were processed

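The authors sequenced paired-end poly(A) libraries and deposited FPKM values, 1 column per library. The submitters' processing notes name HISAT2 and featureCounts. Versions, genome build, annotation and strand setting are not given in the sources used here. Here, FPKM values were divided by median-of-ratios size factors, and log2(value + 0.1) was computed. A gene was tested where 3 or more of the 6 libraries reached 0.5 FPKM, which held for 12408 genes, using limma 3.58.1 in R 4.3.3 (two-sided, intensity trend, no block), with Benjamini-Hochberg adjustment over all of them. The study's own test was a count model, which was not run here. The study's thresholds were kept (adjusted p under 0.05, log2 fold change beyond 1 in either direction). Whole reads were recovered in Python 3.11.15 within 0.02 read and made up 99.69% to 99.7% of the totals. Read recovery and fits were tested on simulated data. Alternatives were other pseudocounts, filters and scalings, no trend, a replicate block, limma-voom on recovered reads and leaving out each library. Named were the 3 genes and, of the genes nearest in pattern, 1 each for Icam1 and Vcam1, with at most 2 unnamed identifiers that rose. The genes and lists were chosen with earlier results of these data known. The RefSeq table pairs 0 Ensembl identifiers with symbols, so lists of further adhesion genes and cell type markers were not analysed here, and the label of the cells could not be checked against markers.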

Additional observations from a re-analysis of the deposited data

How the results depend on the processing

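The log2 fold changes of Icam1 (1.89 to 1.99) and Vcam1 (1.15 to 5.91) passed both thresholds under all 16 alternatives, with adjusted p-values of up to 2.9e-05 and 0.0031. Only its IL−1β libraries brought Vcam1 past the filter, and 5.37% of tested genes were upregulated. Limited by 16 control reads, the Vcam1 change was 1.15 with a pseudocount of 1, 5.32 with 0.01 and 5.91 with limma-voom on recovered reads. Cd44 was higher with IL−1β under all 16, never by 2-fold, and its adjusted p was under 0.05 in 12. The log2 fold change of Cd44 was 0.19 without the trend (adjusted p = 0.052) and 0.15 to 0.22 with 1 library left out (adjusted p of up to 0.076). The cause was not tested. With pseudocounts of 1 and 0.01, the change of the log2 ratio of Vcam1 to Icam1 was −0.79 and 3.38 in place of 1.44, and that of Cd44 to Vcam1 was −0.93 and −5.13 in place of −3.19. Both 1 and 0.1 exceed every control value of Vcam1, so its change and ratios depend on the pseudocount. With 1 library left out, chosen after seeing the data, Vcam1 reads gave a ratio of 26.9 to 83.9, highest without control library 1. Icam1 gave 3.88 to 4.11 and Cd44 1.17 to 1.20. The change of Cd44 to Icam1 stayed between −1.80 and −1.69. Over all genes, 1078 passed both thresholds, and 697 with a pseudocount of 1. The median log2 fold change was 0.058 with the values as deposited and −0.0515 after quantile normalization. For Cd44 it was 0.244 and 0.151 (limma, adjusted p = 0.0032 and 0.037), against 0.186 as reported.

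Libraries with the same number deviated from their group means with correlations of 0.094, 0.021 and 0.034 across genes, so they share only a number. With the replicate number as a block the log2 fold changes were 1.93, 3.40 and 0.19 for Icam1, Vcam1 and Cd44 (adjusted p = 2.9e-05, 0.00096 and 0.018) and 1080 genes passed both thresholds. A fit of replicates 2 and 3 only, chosen after seeing the data, gave 1.89, 3.37 and 0.18. Alternatives planned for listed adhesion genes were not run, as identifiers lacked symbols.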
